A study of Mus musculus with 4 samples.

Results

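The mitochondrially encoded RNAs are the transcripts of the small circular chromosome inside mitochondria. They were taken here as every gene of the deposited count table whose symbol starts with mt-, which gave 37 of 55357 genes. They comprise 2 ribosomal RNAs, 13 messenger RNAs and 22 transfer RNAs. The RNA was taken from cells isolated from the testis of C57BL/6 mice at 7 days of age. C57BL/6 is an inbred strain, and no transgene or mutation is named in the labels. In the DDX20 RIP group (2 libraries) protein and RNA had been crosslinked in the cells with ultraviolet light, and RNA was precipitated with an antibody to DDX20, a DEAD-box helicase of the SMN complex. In the Input group (2 libraries, no antibody) 10% of the total RNA was sequenced without precipitation, and the labels describe the same light exposure and lysis for both groups. The catalogue numbers given for the antibody differ in a single character between the RIP libraries.

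Mitochondria transcribe nearly the whole of both strands of their chromosome into long precursor RNAs. Transfer RNAs punctuate the precursors, and their removal releases most of the ribosomal and messenger RNAs. The messenger RNAs encode core subunits of the respiratory chain complexes and of ATP synthase, and are read by the mitochondrion's own ribosomes. In the testis, spermatogonia rely largely on glycolysis and later germ cells more on respiration.

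Totals were 38458014 and 37927689 counts in the RIP libraries and 21913977 and 21416567 in the Input libraries. Replicates lay close together, with a common biological coefficient of variation of 0.032. On halved counts, the median chi-square over genes was 1.15 times its value under counting error between the RIP libraries. Between the Input libraries it was 1.195 times that value. No label ties the replicates to separate animals or preparations, so the spread behind each p-value is possibly technical only. Of 32 testis marker genes listed, all 32 stood at 1 CPM or more (counts relative to library size, scaled by the trimmed mean of M values, TMM) on average in the Input. Summed germ cell markers stood at 254.2 and 253.4 CPM in the RIP libraries and at 461 and 455 CPM in the Input libraries. Of the 10 germ cell markers 3 were called higher in RIP, Ret (log2 fold change 0.50), Zbtb16 (0.38) and Gfra1 (0.35). Another 6 were called lower, from -1.98 (Nanos3) to -0.69 (Sohlh1). Summed markers of Sertoli cells stood at 2183 and 2180.35 CPM in RIP and at 3211 and 3179 CPM in Input. Of the 6 Sertoli cell markers 2 were called higher, Wt1 (0.70) and Gata4 (0.26), and 3 lower, from -1.22 (Amh) to -0.54 (Amhr2). Clu alone held 1304 and 1294 CPM of the sums in RIP and 2081 and 2058 CPM in Input. Among the other lists, all 4 Leydig cell markers and both endothelial markers were called lower, while of 4 peritubular myoid and stromal markers 1 was higher and 2 lower. All 3 red blood cell markers (summed 70.3 and 69.9 CPM in RIP, 239 and 242 CPM in Input) and all 3 macrophage markers (30.6 and 29.0 CPM in RIP, 102 and 98.4 CPM in Input) were called lower. Over all genes tested, 38.7% were called higher and 38.6% lower. The part of cell makeup in the results that follow was not tested.

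Mitochondrially encoded RNAs made up a much smaller part of the precipitate than of the input. Their summed counts were 0.343% (95% exact binomial interval 0.342% to 0.345%) and 0.352% (0.350% to 0.354%) of the RIP libraries. In the Input libraries they were 2.59% (2.58% to 2.60%) and 2.57% (2.56% to 2.58%). These intervals cover counting error only. The RIP libraries lay below both Input libraries, and the mean share in Input was 7.41 times that in RIP. A two-sided exact permutation test over the libraries gave p = 0.333, the smallest value that 2 libraries against 2 allow. RIP over Input sets precipitated RNA against total RNA. It describes what the precipitate holds relative to the input, not a change of RNA in the cells. No precipitation with a control antibody was analysed here.

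The classes of RNA did not shrink to the same degree. Within the mitochondrial counts, messenger RNAs held 75.3% and 74.3% in RIP and 67.3% and 67.6% in Input. Ribosomal RNAs held 24.6% and 25.6% in RIP and 32.4% and 32.1% in Input. Transfer RNAs held 0.122% and 0.129% in RIP and 0.303% and 0.296% in Input. For each class the groups did not overlap, again at the smallest exact permutation p of 0.333.

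Counts were high enough for a test in 21 of the 37 genes, namely both ribosomal RNAs, all 13 messenger RNAs and 6 transfer RNAs. The filter asked for 0.334 CPM of total counts in at least 2 libraries, which takes fewer counts in the smaller Input libraries than in the RIP libraries. In 16 of the 21 both groups met it, while mt-Nd4l, mt-Tm, mt-Ta, mt-Tn and mt-Ts1 met it only through their Input libraries and were bound to show a decrease. By edgeR's quasi-likelihood test (Benjamini-Hochberg adjusted p under 0.05, over 17422 genes) all 21 were lower in RIP and 0 higher. Of all genes tested 77.3% were called, 38.6% as lower and 38.7% as higher. In each of the 21 both RIP libraries lay below both Input libraries, as they did in 45.3% of all genes. Log2 fold changes (RIP over Input) ran from -5.22 to -0.52 among the 21, with a median of -2.92, against a median of -0.05 over all genes tested. A decrease of at least 4-fold was called for 18 of them, against 7.6% of all genes. These 18 include mt-Nd4l, mt-Tm, mt-Ta, mt-Tn and mt-Ts1, which were bound to fall, and the median of the 21 is the value of mt-Nd4l. With total counts in place of TMM the median of all genes moved by -0.35, and 4996 genes were called higher and 8836 lower instead of 6734 and 6727. All 21 were lower under both scalings.

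**Figure D1:**
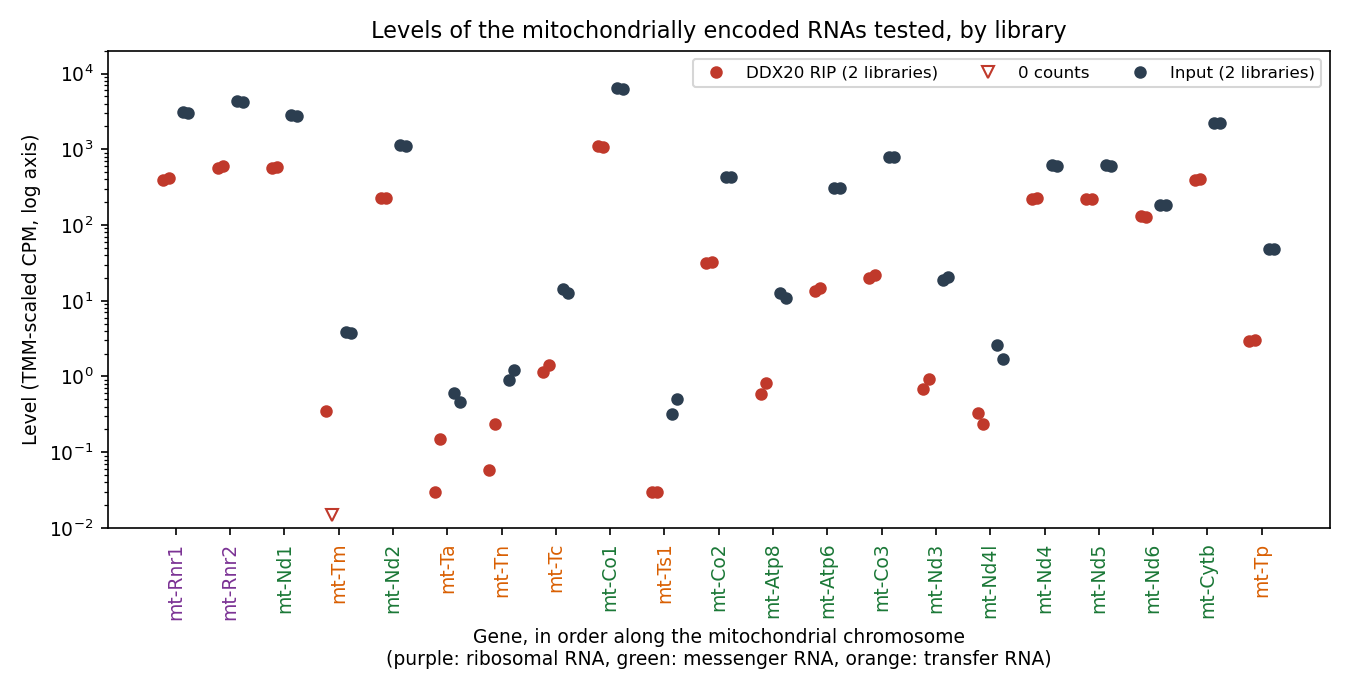
TMM-scaled CPM (log axis) of the 21 mitochondrially encoded genes tested, in order along the mitochondrial chromosome, with 1 point per library (DDX20 RIP in red, left; Input in dark blue, right); the open triangle marks a RIP library with 0 counts of mt-Tm. In every gene shown the RIP points lie below the Input points, with the narrowest gap at mt-Nd6 and the widest among well counted genes at mt-Co3.

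The 2 ribosomal RNAs form the core of the small and the large mitochondrial ribosomal subunit and moved almost together. The small-subunit RNA mt-Rnr1 (chrM:70-1024, plus strand, GRCm38; ENSMUSG00000064337.1) stood at 395 and 415 CPM in RIP and at 3095 and 3058 CPM in Input. Its log2 fold change was -2.92 ± 0.0246 (SE, n = 2 libraries per group; edgeR adjusted p = 1.18e-40). The large-subunit RNA mt-Rnr2 (chrM:1094-2675, plus strand) stood at 565 and 596 CPM in RIP and at 4345 and 4259.5 CPM in Input, a log2 fold change of -2.89 ± 0.0242. The count ratio of mt-Rnr2 to mt-Rnr1 was 1.43 in each RIP library and 1.40 and 1.39 in the Input libraries. Their balance differed far less between the groups than their level did.

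The 7 complex I messages, which encode membrane subunits of the NADH dehydrogenase, spread over almost the whole range, from -4.60 to -0.52. In RIP they held 35.1% of the mitochondrial counts of each library, against 23.4% and 23.3% in Input. The first complex I messages along the chromosome, mt-Nd1 (chrM:2751-3707) and mt-Nd2 (chrM:3914-4951), fell by the same amount. mt-Nd1 stood at 565 and 577 CPM in RIP and at 2816 and 2771 CPM in Input. mt-Nd2 stood at 228.4 and 228.9 CPM in RIP and at 1123 and 1114 CPM in Input. Both had a log2 fold change of -2.29, with standard errors of 0.0226 and 0.0255.

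The neighbouring messages mt-Nd4, mt-Nd5 and mt-Nd6 fell least. mt-Nd4 (chrM:10167-11544) stood at 223 and 228 CPM in RIP and at 627 and 608 CPM in Input, a log2 fold change of -1.45 ± 0.0278. mt-Nd5 (chrM:11742-13565) stood at 224 CPM in each RIP library and at 614 and 598 CPM in Input, a log2 fold change of -1.44 ± 0.0274. mt-Nd6 (chrM:13552-14070; ENSMUSG00000064368.1), the only messenger RNA encoded on the minus strand, stood at 130.03 and 127 CPM in RIP and at 184.6 and 184.9 CPM in Input. Its log2 fold change was -0.52 ± 0.0353 (edgeR adjusted p = 2.46e-15), a 1.44-fold difference. The RIP and Input libraries of mt-Nd6 were still apart, but it lost its call when the change was tested against 1.5-fold (edgeR adjusted p = 1) or when a biological coefficient of variation of 0.2 was assumed (edgeR adjusted p = 0.113). With the trend on gene length removed, as described further on, its direction turned, to 1.13 (edgeR adjusted p = 4.87e-25). The kit does not mark strand, so reads of mt-Nd6 and of plus-strand RNA across the same bases cannot be told apart; mt-Nd5 overlaps it by 14 bases.

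The 2 shortest complex I messages had low counts in both groups. mt-Nd3 (chrM:9459-9806) stood at 0.680 and 0.916 CPM in RIP and at 18.7 and 20.3 CPM in Input, a log2 fold change of -4.60 ± 0.176. mt-Nd4l (chrM:9877-10173) had 11 and 8 counts in RIP and 64 and 41 counts in Input, a log2 fold change of -2.92 ± 0.429. Both are matched nearly end to end by a nuclear copy, as described further on, and reads shared with it have no single origin. In Input the copy of mt-Nd3 held 707 and 711 counts, against 461 and 491 at the gene. The copy of mt-Nd4l held 155 and 158 counts there, against 64 and 41. Low counts at these genes therefore do not show that their RNA is rare. The message of mt-Nd4l runs into that of mt-Nd4, and its sequence, read from the GENCODE M21 transcripts (GRCm38, plus strand), is shown because the last 7 bases, in capitals, belong to both genes and reads across them have no single owner.
mt-Nd4l: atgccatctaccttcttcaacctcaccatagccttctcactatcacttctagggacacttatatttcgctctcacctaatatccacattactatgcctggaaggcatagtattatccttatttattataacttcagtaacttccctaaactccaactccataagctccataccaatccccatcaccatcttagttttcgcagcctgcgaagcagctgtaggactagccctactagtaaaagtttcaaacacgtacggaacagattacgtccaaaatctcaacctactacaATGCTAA

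The complex III message mt-Cytb (chrM:14145-15288) encodes cytochrome b, through which electrons pass from ubiquinol to cytochrome c. It stood at 394 and 399.6 CPM in RIP and at 2201 and 2199.6 CPM in Input, a log2 fold change of -2.47 ± 0.0233. It lay close to mt-Nd1, mt-Nd2 and mt-Co1 in its change, although it is the last messenger RNA along the chromosome.

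The 3 messages of complex IV, cytochrome c oxidase, encode its catalytic core and differed widely. mt-Co1 (chrM:5328-6872), the most abundant member in both groups, stood at 1108 and 1078 CPM in RIP and at 6371 and 6345.5 CPM in Input, a log2 fold change of -2.54 ± 0.0209. mt-Co2 (chrM:7013-7696) stood at 31.3 and 32.2 CPM in RIP and at 433 and 435 CPM in Input, a log2 fold change of -3.77 ± 0.0375. mt-Co3 (chrM:8607-9390; ENSMUSG00000064358.1) stood at 20.1 and 21.9 CPM in RIP and at 781 and 789 CPM in Input. At -5.22 ± 0.0376 (edgeR adjusted p = 3.04e-42), a 37.3-fold difference, mt-Co3 fell most among the 21, and it was 43rd from the lowest of all 17422 genes tested. Of the mitochondrial counts, mt-Co1 held 28.4% and 27.3% in RIP and 27.7% and 27.9% in Input, whereas mt-Co3 held 0.516% and 0.555% in RIP and 3.39% and 3.46% in Input.

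The 2 ATP synthase messages, for subunits of its membrane-embedded part, share a transcript and fell similarly. mt-Atp6 (chrM:7927-8607) stood at 13.4 and 14.6 CPM in RIP and at 304 and 309 CPM in Input, a log2 fold change of -4.45 ± 0.0471. mt-Atp8 (chrM:7766-7969) stood at 0.591 and 0.828 CPM in RIP and at 12.8 and 10.8 CPM in Input, a log2 fold change of -4.05 ± 0.212. Their reading frames overlap by 43 bases, in capitals in the mt-Atp8 sequence (GENCODE M21, GRCm38, plus strand), and reads across them have no single owner.
mt-Atp8: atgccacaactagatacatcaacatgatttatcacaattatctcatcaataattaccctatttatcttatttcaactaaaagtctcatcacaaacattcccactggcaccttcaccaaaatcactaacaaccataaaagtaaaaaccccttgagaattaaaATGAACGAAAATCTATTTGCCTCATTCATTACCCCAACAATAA

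**Figure D2:**
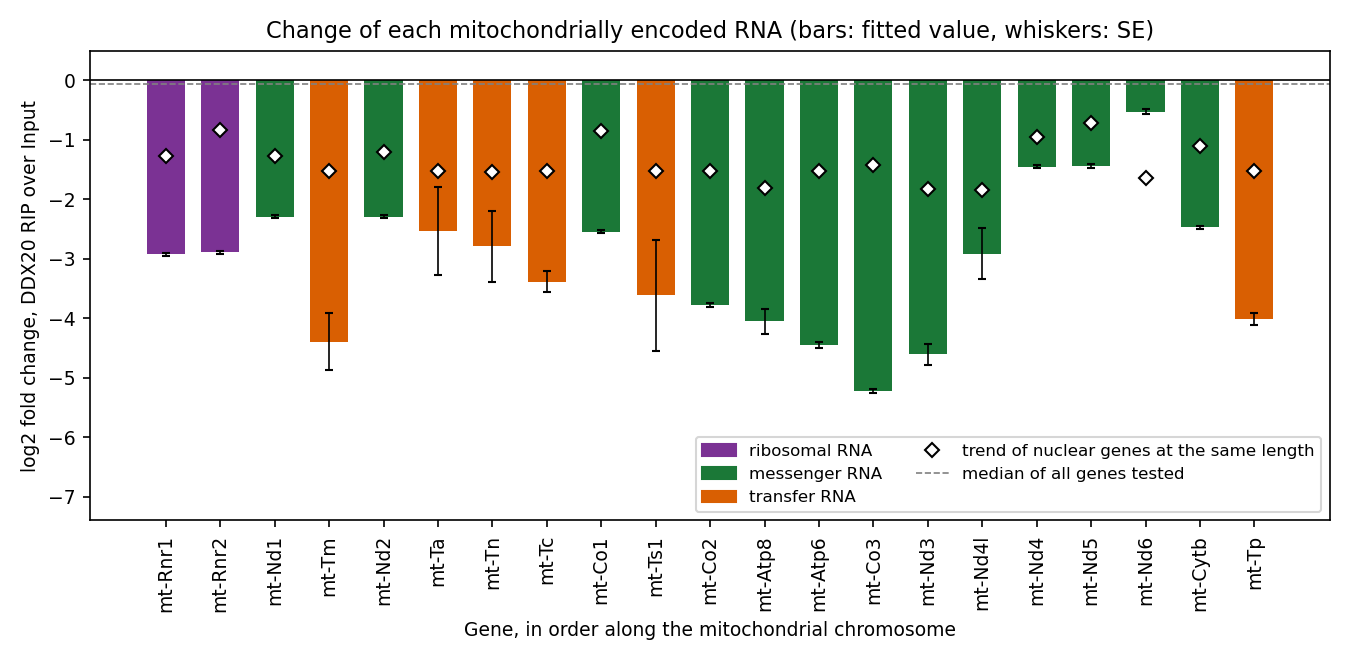
Fitted log2 fold change of DDX20 RIP over Input for the 21 genes tested (bars; whiskers are standard errors), coloured by class and ordered along the mitochondrial chromosome, with the length trend of nuclear genes (diamonds) and the median of all genes (dashed line). From mt-Co2 to mt-Nd3 the bars reach between -3.77 and -5.22, the bars of mt-Nd4, mt-Nd5 and mt-Nd6 are the shortest, and mt-Nd6 alone ends above its diamond.

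Transfer RNAs carry the amino acids for mitochondrial translation, and at 59 to 75 nt they are shorter than the reads. The proline transfer RNA mt-Tp stood at 2.99 and 3.02 CPM in RIP and at 48.7 and 47.8 CPM in Input, a log2 fold change of -4.01 ± 0.100 (edgeR adjusted p = 9.47e-28). The cysteine transfer RNA mt-Tc stood at 1.15 and 1.42 CPM in RIP and at 14.3 and 12.5 CPM in Input, a log2 fold change of -3.38 ± 0.1804. The methionine transfer RNA mt-Tm had 12 and 0 counts in RIP and 96 and 90 counts in Input, a log2 fold change of -4.39 ± 0.473 that DESeq2 did not call (adjusted p = 0.0566). It stood at -3.37 without RIP replicate 2, whereas without RIP replicate 1 the only RIP count is 0 and the fitted value, -9.70, depends on the prior count. These are the most counted transfer RNAs, and their sequences (GENCODE M21, GRCm38, written as the gene's own strand) are shown with the anticodon in capitals.
mt-Tp (chrM:15356-15422, minus strand): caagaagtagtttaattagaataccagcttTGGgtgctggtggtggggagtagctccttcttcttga
mt-Tc (chrM:5192-5257, minus strand): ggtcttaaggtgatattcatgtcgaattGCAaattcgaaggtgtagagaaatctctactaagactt
mt-Tm (chrM:3845-3913, plus strand): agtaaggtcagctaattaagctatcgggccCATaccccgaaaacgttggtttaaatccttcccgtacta

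The other 3 transfer RNAs tested were close to the limit of counting. The asparagine transfer RNA mt-Tn had 2 and 8 counts in RIP and 22 and 29 counts in Input. The alanine transfer RNA mt-Ta had 1 and 5 counts in RIP and 15 and 11 counts in Input. The serine transfer RNA mt-Ts1 had 1 count in each RIP library and 8 and 12 counts in Input. Their log2 fold changes were -2.79 ± 0.597, -2.53 ± 0.741 and -3.61 ± 0.931. mt-Ta lost its call without RIP replicate 1 (-1.78), without Input replicate 1 (-2.29) and without Input replicate 2 (-2.72), and kept it without RIP replicate 2 (-3.94). mt-Tn lost its call without Input replicate 2 (-2.56), and stood at -2.09 without RIP replicate 1 and at -4.01 without RIP replicate 2.

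The remaining 16 transfer RNAs had too few counts to test, at most 13 in any library. Of these, mt-Ti, mt-Td, mt-Tk, mt-Tg, mt-Ts2 and mt-Tt had 0 counts in all 4 libraries, which allows up to 0.0780 and 0.0791 CPM of total counts in RIP and up to 0.137 and 0.140 CPM in Input (3 counts per library, counting error only). mt-Tl1 had 2 and 3 counts in RIP and 7 and 13 counts in Input. mt-Tv had 0 counts in both RIP libraries and 6 in each Input library, and mt-Tq had 0 counts in both RIP libraries and 2 and 6 in Input. mt-Te had 3 and 2 counts in RIP and 3 and 0 counts in Input. mt-Ty had 0 and 1 counts in RIP and 1 and 2 counts in Input. In mt-Tf, mt-Tw, mt-Tl2, mt-Tr and mt-Th no library held more than 1 count. Transfer RNA genes with enough counts to test lay mostly on the minus strand: 5 of 8 there were tested, against 1 of 14 on the plus strand. Of these, mt-Ta, mt-Tn and mt-Ts1 on the minus strand and mt-Tm on the plus strand met the filter only through Input. The kit does not mark strand, so counts at these genes may include reads of RNA from the opposite strand.

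Differences among the members were tested by scaling each library to its summed mitochondrial counts instead of TMM. The members make up that total, so the values are relative to one another. mt-Co1 alone held 27.3% to 28.4% of it, which draws its own value towards that of the pool. On that scale 90.4% of all genes were called, 89.6% as higher in RIP and 0.804% as lower, which reflects the choice of scale. Of the 21 genes, 6 were higher than the pooled mitochondrial RNA, 10 were lower and 5 did not pass the test. mt-Nd6 was highest, at a log2 change of 2.02 ± 0.0415 (edgeR adjusted p = 1.10e-29). mt-Nd5 stood at 1.11 ± 0.0351, mt-Nd4 at 1.09 ± 0.0350, mt-Nd1 and mt-Nd2 at 0.25 each and mt-Cytb at 0.07. At the other end mt-Co3 stood at -2.68 ± 0.0488, mt-Nd3 at -2.07 ± 0.2004, mt-Atp6 at -1.91 ± 0.0581 and mt-Tm at -1.87 ± 0.530. Of the 10 called lower, mt-Tm met the low-count filter only through Input, which favours a decrease. The other 6 that were lower were mt-Atp8 (-1.51), mt-Tp (-1.46), mt-Co2 (-1.23), mt-Tc (-0.84), mt-Rnr1 (-0.38) and mt-Rnr2 (-0.35). mt-Co1, mt-Nd4l, mt-Ta, mt-Tn and mt-Ts1 did not pass, with mt-Co1 at 0.003 ± 0.0310. mt-Tm lost its call without RIP replicate 2 (-0.87) or Input replicate 1 (-1.85). mt-Cytb lost it without Input replicate 1 (0.07), without Input replicate 2 (0.08) and with the replicate number as a block (edgeR adjusted p = 0.0662). Scaled to the summed mitochondrial messenger RNAs instead, mt-Cytb turned to lower (-0.076, edgeR adjusted p = 0.00584) and mt-Co1 was called lower (-0.15, edgeR adjusted p = 9.44e-07).

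The order of levels per length also differed between the groups. In RIP, mt-Co1 led at 707 ± 13.5 CPM per kb (SD, n = 2), followed by mt-Nd1 (597), mt-Rnr1 (424), mt-Rnr2 (367), mt-Cytb (347) and mt-Nd6 (248). In Input, mt-Co1 led at 4115 ± 11.6 CPM per kb, followed by mt-Rnr1 (3222), mt-Nd1 (2919), mt-Rnr2 (2719.5), mt-Cytb (1923), mt-Nd2 (1078) and mt-Co3 (1001). Counting the ribosomal and messenger RNAs, mt-Nd6 ranked 6th in RIP and 11th in Input, while mt-Co3 ranked 11th in RIP and 7th in Input. Counts assigned to the nuclear copies described further on, among them a copy of mt-Co3, are not part of these levels. In Input the libraries of mt-Atp6 and mt-Nd4 overlapped, as did those of mt-Atp8 and mt-Nd3, and no other neighbours in either order did.

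Gene length went with the change in the whole data set. Over 17357 genes tested with an annotated exon length, Spearman's rho between length and log2 fold change was 0.557, and all 13 mitochondrial messages are at most 1824 nt long. Within the 21 members rho was 0.480, and among the 15 messenger and ribosomal RNAs it was 0.525. For base composition rho was -0.16 over the 21. These points share their libraries and, in part, their precursor RNAs, and are given as a description. A smooth trend of log2 fold change on length was fitted over nuclear genes and removed as an offset. After it, 17 of the 21 genes were lower and 1 was higher, against 29.9% and 40.5% of all genes (70.3% called), and the median of the 21 was -1.68. mt-Co3 then stood at -3.80, mt-Rnr2 at -2.05 and mt-Nd4 at -0.50. mt-Ta, mt-Tn and mt-Ts1 no longer passed the test, and mt-Nd6 was the gene called higher, at 1.13. The 17 include mt-Nd4l (-1.09) and mt-Tm (-2.88), which met the low-count filter only through Input, as did mt-Ta, mt-Tn and mt-Ts1. All of these also enter the median and the rho values over the 21.

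**Figure D3:**
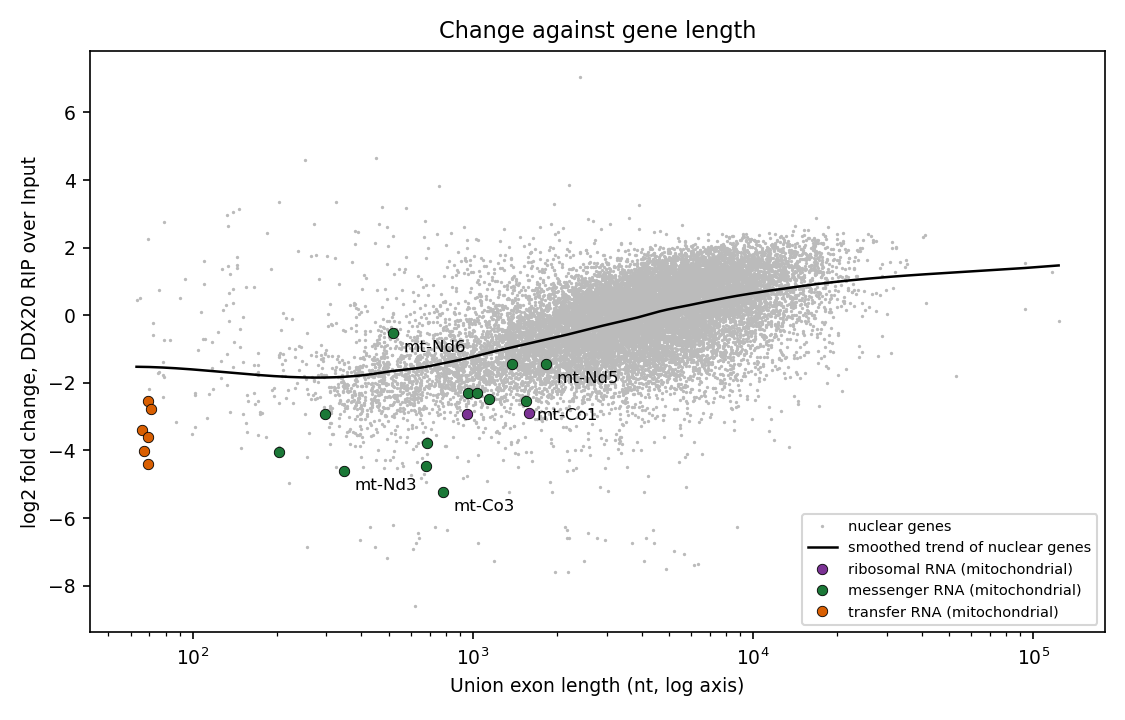
Log2 fold change of DDX20 RIP over Input against union exon length (log axis) for nuclear genes tested (grey points), their smoothed trend (black line) and the 21 mitochondrial genes (coloured by class). Of the mitochondrial points mt-Nd6 alone lies above the trend, and mt-Co3 lies lowest.

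The tested nuclear copies of mitochondrial genes shared the members' direction, but not always the size of their change. Mitochondrial DNA has been inserted into nuclear chromosomes repeatedly, and reads from identical stretches have no single origin. A block on chromosome 1 (GRCm38, minus strand) holds 7 annotated pseudogenes at 98% identity or more to the members, from Gm28439 (chr1:24611535-24612410) to Gm29216 (chr1:24615706-24616197). These copies match 99.9% of mt-Co3, 99.6% of mt-Co2, 99.6% of mt-Atp6, 99.1% of mt-Nd3, 99% of mt-Nd4l, 63.6% of mt-Nd4, 31.3% of mt-Co1 and 21.1% of mt-Atp8. The other members had no annotated match at that identity. Copies that are not annotated as genes were not searched here.

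Well matched genes were among those that fell most. The 5 messages matched over 99% or more of their length had log2 fold changes from -5.22 (mt-Co3) to -2.92 (mt-Nd4l), with a median of -4.45. The other 8 messages ran from -4.05 (mt-Atp8) to -0.52 (mt-Nd6), with a median of -2.29. mt-Nd4, matched over 63.6%, and mt-Nd5, with no match, had nearly the same change. Over the 15 messenger and ribosomal RNAs Spearman's rho between matched length and log2 fold change was -0.71. The part of shared reads in these changes was not tested beyond the sums that follow.

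The 7 near-identical copies together held 2123 and 2099 counts in RIP and 8386 and 8267 counts in Input. Gm28437, the copy of mt-Co3, stood at 14.1 and 13.6 CPM in RIP and at 87.0 and 91.9 CPM in Input, a log2 fold change of -2.69 ± 0.0662. Gm28661, the copy of mt-Co2, stood at -2.10, Gm10925, the copy of mt-Atp6, at -2.73, Gm28438, the copy of mt-Nd3, at -2.09, Gm28439, the copy of part of mt-Nd4, at -2.55, and Gm29216, the copy of part of mt-Co1, at -2.42. Gm10222, the copy of mt-Nd4l found by the search of annotated pseudogenes, stood at -2.71. On chromosome 2, Gm13340 (-4.04, 97.6% identical to mt-Co1), Gm13341 (-3.31) and Gm13339 (-3.49) fell as well. Of the 11 copies listed 9 were tested and all 9 were lower, each passing edgeR's adjusted p of 0.05, against 38.6% of all genes. Gm13339, with 2 and 4 counts in RIP and 28 and 23 in Input, met the filter only through Input and was bound to fall. Because reads may be shared between copies and members, the count of 9 is not independent of the members. Gm29155, which did not align to the members, had 12 and 4 counts in RIP and 0 in both Input libraries and was not tested. Gm20199, also listed, had no entry in the annotation used.

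Adding the counts of each near-identical copy to its partner, an alternative chosen after seeing the data, moved mt-Nd3 most. mt-Nd3, whose copy stood at 29.0 CPM in Input against 18.7 and 20.3 CPM of its own, had a log2 fold change of -2.68 instead of -4.60. mt-Co3 stood at -4.65, mt-Atp6 at -3.98, mt-Co2 at -3.40 and mt-Nd4l at -2.76. All 21 remained lower in RIP.

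**Figure D4:**
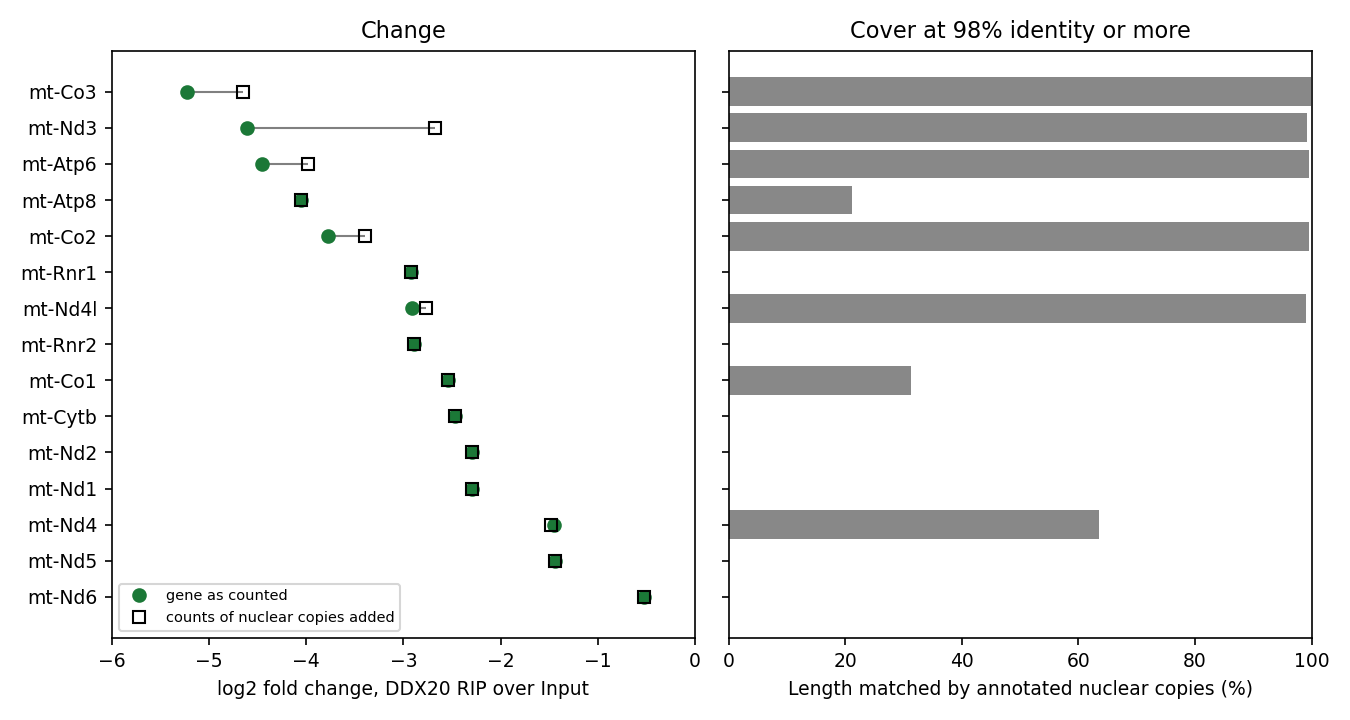
Left, log2 fold change of DDX20 RIP over Input for the 15 messenger and ribosomal RNAs as counted (filled circles) and with the counts of near-identical nuclear copies added (open squares); right, percent of each gene's length matched by annotated nuclear copies at 98% identity or more. With the copies added mt-Nd3 stands at -2.68 instead of -4.60, and mt-Co3 is still lowest at -4.65.

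The nuclear genes that make, cut, modify, degrade and translate mitochondrial RNA showed no common direction. Of 65 listed genes 64 were tested, of which 26 were higher and 26 lower, against 38.7% and 38.6% of all genes, and their median log2 fold change was 0.05. With total counts 15 were higher and 35 lower, against 4996 and 8836 of the 17422 genes tested. Prorp had no entry in the annotation used. Polrmt, the mitochondrial RNA polymerase, stood at 114.6 and 111.5 CPM in RIP and at 39.6 and 37.96 CPM in Input, a log2 fold change of 1.54 ± 0.0498. Lrpprc, which binds and stabilises mitochondrial messages, stood at 280.2 and 285 CPM in RIP and at 77.0 and 76.8 CPM in Input, a log2 fold change of 1.88 ± 0.0360. Its partner Slirp stood at 0.0887 and 0.148 CPM in RIP and at 0.608 and 1.08 CPM in Input, a log2 fold change of -2.79 ± 0.635, and lost its call without Input replicate 2 (-2.32). Slirp, among the 26 called lower, met the low-count filter only through its Input libraries and was bound to show a decrease.

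Other members of that list included Nsun2 (log2 fold change 1.13 ± 0.0358), an RNA cytosine methyltransferase. Hsd17b10, a subunit of the enzyme that cuts the 5′ ends of mitochondrial transfer RNAs, fell by 1.42 ± 0.0410 on the log2 scale, and Tufm, a translation elongation factor, fell by 0.17 ± 0.0353. Tufm stood at 0.42 after the length offset, so its direction turned, and did not pass against 1.5-fold or with the larger assumed variation. Tfam, which packages mitochondrial DNA and starts its transcription, stood at -0.02 ± 0.0641 with TMM and did not pass the test, but at -0.36 with total counts and upper-quartile scaling, where it did, as it did at -0.26 with the filter at 5 CPM. Ddx20, the antibody's target, stood at 77.6 and 83.2 CPM in RIP and at 41.4 and 41.2 CPM in Input, a log2 fold change of 0.96 ± 0.0552.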

How the data were processed

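RNA of 4 libraries (2 DDX20 RIP, 2 Input) from mouse testis cells was prepared with a NEBNext Ultra RNA kit and sequenced as paired 150-nt reads, per the labels' protocols. The authors deposited whole-number counts per gene. The submitters' processing notes name Trimmomatic 0.36, cutadapt 4.1, STAR 2.7.2b, SAMtools, featureCounts and GRCm38, without settings, strand or annotation release (not given in the sources used here). Between 65.4% and 67.4% of nonzero counts were even, so many read pairs may have been counted as 2. Depth was 21416567 to 38458014 counts per library, and 16 of the 22 transfer RNAs had too few counts to test.

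Gene symbols, lengths and transcripts came from GENCODE M21, which named 52081 (94.1%) of the 55357 IDs. Counts were fitted with edgeR 4.0.16 (R 4.3.3; filterByExpr, TMM, robust quasi-likelihood test) and p-values adjusted by Benjamini-Hochberg over 17422 genes at a threshold of 0.05. The script was checked on simulated counts. Nuclear copies were found by aligning annotated pseudogene transcripts to the members' transcripts, a step added after seeing the data. Alternatives changed scaling, low-count filter, tool (DESeq2 1.42.0, limma 3.58.1), assumed variation, fold tested, length offset, replicate block and libraries. Named genes were all members, listed copies and 7 machinery genes. The members and lists were chosen with earlier results of these data known.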

Additional observations from a re-analysis of the deposited data

How the results depend on the processing

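Over 369 values of single members under the alternatives, 358 kept their direction and call, 10 kept their direction and lost the call, and 1 reversed, mt-Nd6 at 1.13 with the length offset. The count of members called lower was 22 of 31 with no low-count filter, 16 of 16 with the filter at 5 CPM, 20 of 21 with DESeq2 and 17 of 21 with the length offset, where 1 was called higher; with a library left out it lay between 18 and 21. The median log2 fold change of the members tested, -2.92, was -3.26 with total counts or upper-quartile scaling, -2.50 with no filter, -3.15 with the filter at 5 CPM, -1.68 with the length offset and -2.79 with copies added, and lay between -3.14 and -2.83 with a library left out. Among all genes, those called lower numbered 6263 with no filter, 5169 with the filter at 5 CPM, 5557 with DESeq2 and 5186 with the length offset. Tested against 1.5-fold, 4210 of all genes were higher and 4426 lower. Machinery genes called higher numbered 15 with total counts, 15 with upper-quartile scaling, 14 with a biological coefficient of variation of 0.2 and 14 against 1.5-fold; those called lower numbered 12 and 10 in the last pair of settings. With no filter 1 listed nuclear copy, Gm29155, was called higher. With nuclear copies counted in, the mitochondrial share was 0.354% in RIP and 2.62% in Input. Relative to the summed mitochondrial messenger RNA, mt-Co1 stood at -0.15 and mt-Cytb at -0.076, both turned to lower and past the test. Relative to the mitochondrial total and with a library left out, mt-Ta ranged from -1.58 to 0.68, mt-Tn from -1.57 to 0.39 and mt-Co1 from -0.025 to 0.030. Tfam stood at 0.0077 with relative log expression scaling and with DESeq2, at 0.039 with no filter and between -0.065 and 0.11 with a library left out, and Tufm at 0.42 with the length offset. The causes of these shifts were not tested. With the replicate number as a block 6734 genes were higher and 6655 lower and all 21 members stayed lower. Same-numbered libraries did not deviate together (pairing correlation -0.001). Replicates differed by little more than counting error, so this value cannot show whether the numbers mark a pairing. At this depth the 16 transfer RNAs not tested had at most 13 counts in a library.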
